A study of Mus musculus with 32 samples.

Results

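The genes described here are 9 genes of the sinoatrial node: Hcn4, Hcn2, Shox2, Tbx3, Tbx18, Isl1, Vsnl1, Cpne5 and Smoc2. They were chosen by name as pacemaker channels, sinus node transcription factors and sinus node markers, with earlier results of these data known. They are 9 of the 19938 genes named on the array. Each is represented by a single probe set, and all 9 passed a brightness filter that left 15219 genes for testing. Shox2 passed it narrowly, with a mean of 4.51 log2 over all arrays against a limit of 4.48, and Isl1 averaged 4.90; the other 7 members averaged 5.73 to 7.09.

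Atrial RNA of 16 mice was hybridised to Affymetrix Mouse Gene 1.0 ST arrays, with 1 array for the atrium labelled left and 1 for the atrium labelled right of each mouse. Of the 4 genotypes, 4 mice each, the first was the double transgenic dnPI3K-Mst1, which carried both transgenes. The second was Mst1, transgenic for the kinase encoded by Stk4, and the third was dnPI3K, transgenic for a dominant negative phosphoinositide 3-kinase. The fourth was Ntg, the non-transgenic control. All mice had a mixed background of the inbred strains C57BL/6 and FVB/N and ate standard chow. The promoter of each transgene and the age and sex of the mice are not given in the sources used here, so the cell type in which a transgene acts cannot be stated.

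The sinoatrial node is the small pacemaker region at the junction of the right atrium with the superior vena cava. Its myocytes depolarise spontaneously through the hyperpolarisation-activated current carried by HCN channels together with calcium currents and calcium release. A set of transcription factors, Shox2, Tbx3, Tbx18 and Isl1, forms the node and keeps the fast conduction programme of working atrial myocardium low there. In a dissected atrium the node is a minor part of the tissue, so its genes are read against a large background of atrial myocytes, fibroblasts and vessels. In bulk RNA of this kind, fewer cells of a type and less RNA per cell cannot be told apart.

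Promoter sequences are shown for the 4 members with the largest positive differences between the arrays of an animal described below, because those differences are the main pattern. The windows run from 250 bases before to 50 bases after the annotated start, 5′ to 3′, as given by RefSeq for build GRCm38.p6, where 7 of the 9 members matched an entry. Tbx3 and Smoc2 are named only. Capitals mark a motif match on the printed strand or its complement.
Hcn4 (chr9:58822699-58822998, plus strand): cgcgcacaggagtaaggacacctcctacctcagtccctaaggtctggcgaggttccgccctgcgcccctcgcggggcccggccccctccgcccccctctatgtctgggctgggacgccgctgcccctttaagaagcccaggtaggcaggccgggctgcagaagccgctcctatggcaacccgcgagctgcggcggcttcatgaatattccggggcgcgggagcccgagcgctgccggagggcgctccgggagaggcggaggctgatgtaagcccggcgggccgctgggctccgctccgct
Shox2 (chr3:66981722-66982021, minus strand): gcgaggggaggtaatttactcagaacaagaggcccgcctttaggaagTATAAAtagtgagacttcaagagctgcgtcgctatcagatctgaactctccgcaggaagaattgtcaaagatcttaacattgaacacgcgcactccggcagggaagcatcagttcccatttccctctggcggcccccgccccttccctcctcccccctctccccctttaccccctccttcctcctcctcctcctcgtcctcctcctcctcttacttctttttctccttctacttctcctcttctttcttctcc
Vsnl1 (chr12:11436529-11436828, minus strand): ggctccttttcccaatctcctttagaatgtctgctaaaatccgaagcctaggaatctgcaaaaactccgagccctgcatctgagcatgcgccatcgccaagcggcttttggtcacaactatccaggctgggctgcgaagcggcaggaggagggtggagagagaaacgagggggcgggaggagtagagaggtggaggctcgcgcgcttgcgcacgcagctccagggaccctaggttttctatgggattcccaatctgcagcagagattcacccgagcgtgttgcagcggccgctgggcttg
Cpne5 (chr17:29237741-29238040, minus strand): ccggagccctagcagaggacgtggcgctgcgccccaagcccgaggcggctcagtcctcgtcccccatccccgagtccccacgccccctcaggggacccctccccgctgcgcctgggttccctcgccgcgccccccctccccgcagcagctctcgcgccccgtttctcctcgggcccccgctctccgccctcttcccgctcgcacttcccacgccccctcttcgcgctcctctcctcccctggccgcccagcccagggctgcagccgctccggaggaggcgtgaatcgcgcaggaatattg
The 4 windows differ in base composition. G and C made up 71.7% of the Hcn4 window, 53.3% of the Shox2 window, 58.7% of the Vsnl1 window and 74.7% of the Cpne5 window, against a median of 52.7% over all promoters of the table. Vsnl1 has 2 annotated starts, and the window shown is the one farther upstream. Both strands were searched for 4 motifs. The T-box half-site was searched as TCACACC, as described for factors such as Tbx3. The element of the myocardial factor NKX2-5 was searched as TNAAGTG, where N is any base. The motif of GATA factors was searched as AGATAA, and the core promoter box as TATAAA. No motif contains another. Of 32851 promoter windows of the same length, 3.98% held the T-box motif, 11.5% the NKX2-5 motif, 11.2% the GATA motif and 13.6% the TATA motif. In these 4 windows the only match was TATAAA in Shox2, starting at position -203 from the annotated start. Among the other members with an entry, Tbx18 held TGAAGTG at position 10 and Isl1 held AGATAA at position 10 after the start, and Hcn2 held none of the 4. A match is a description of letters and not of a bound site.

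The deposited values were log2 signals between 1.16 and 14.08, and array medians lay between 5.51 and 5.68. Stk4, the gene of the Mst1 transgene, averaged 8.33 ± 0.11 log2 in dnPI3K-Mst1, 8.25 ± 0.09 in Mst1, 7.61 ± 0.13 in dnPI3K and 7.54 ± 0.11 in Ntg atria (mean of both arrays of an animal, SD, n = 4 each), so the genotype labels that carry Mst1 matched it. The labelled sides were less clear. Bmp10, a ligand known in the adult mouse heart mainly from the right atrium, was at 11.4 to 12.8 log2 on 16 arrays and at 3.77 to 6.64 on the other 16, and every animal had 1 array of each kind. Of the 16 Bmp10-high arrays, 13 were labelled left: 4 of 4 in dnPI3K-Mst1, 3 of 4 in Mst1, 4 of 4 in dnPI3K and 2 of 4 in Ntg. Arrays are therefore called by Bmp10 level, cut at 9 log2, and by "labelled" side where the labels are used. The split is measured and not labelled, so the comparison asks which genes went with Bmp10 inside an animal. It does not establish which atrium an array came from. Values below are given in the order of the animals' numbers within a genotype: 1509, 1647, 1649, 1650 in dnPI3K-Mst1; 1466, 1838, 1839, 1840 in Mst1; 1507, 1648, 1660, 3241 in dnPI3K; and 1301, 1657, 1662, 1834 in Ntg. Of the 32 arrays, 4 stood apart by a mean correlation with the others under 0.97: the Bmp10-high arrays of Mst1 1466, dnPI3K 1507, dnPI3K 3241 and Ntg 1662. Only 4 mice per genotype limit the precision, and p-values measure the spread between these mice.

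The atrial marker Nppa, a natriuretic peptide, was at 13.2 to 13.6 log2 and Myl7, the atrial myosin light chain, at 11.9 to 12.7 on all 32 arrays. The mean of 5 ventricular markers lay between 5.49 and 7.68 log2, with the highest value on a Bmp10-high dnPI3K array. Levels of different genes on an array depend on their probes and are not compared with each other.

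Between the 2 arrays of an animal, pacemaker genes went mostly with Bmp10. Hcn4, Shox2, Tbx3, Vsnl1 and Cpne5 were higher in the Bmp10-high array, Smoc2 was lower, and Hcn2, Tbx18 and Isl1 did not pass the test (limma on the within-animal difference, averaged over the 4 genotypes, Benjamini-Hochberg adjustment over 15219 genes, called at an adjusted p under 0.05). The largest difference was in Cpne5, which was 1.87-fold higher, followed by Vsnl1 at 1.69-fold and Hcn4 at 1.53-fold. Thus 5 of 9 members were called higher, against 3.08% of all genes tested, and 1 of 9 was called lower, against 5.42%. The members were chosen with earlier results of these data known, so these shares are a description and no test of the set. Shox2 is one of the 5 and passed the brightness filter only through its Bmp10-high arrays; of the other 8 members 4 were called higher. The median difference of the 9 members was 0.26 log2, and that of all genes tested was -0.02. All 6 calls held in each of 24 alternative settings, including fits without each animal in turn.

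Hcn4 encodes the channel that carries most of the pacemaker current in the mouse sinus node. Its level ran over 5.40 to 6.63 (median 6.09) log2 in the 16 Bmp10-high arrays and over 5.11 to 6.60 (median 5.38) in the 16 Bmp10-low arrays. In dnPI3K-Mst1 atria it was 6.50, 6.36, 6.54 and 6.27 in the Bmp10-high arrays, against 5.38, 5.31, 5.26 and 5.47 in the Bmp10-low arrays. Every high array of that genotype lay above every low one, with a difference of 1.06 ± 0.19 log2 (SE, adjusted p = 0.0027). Mst1 atria had 5.49, 6.17, 5.98 and 6.63 in the high arrays, against 5.37, 5.38, 5.45 and 5.18 in the low arrays, again without overlap, with a difference of 0.72 and an adjusted p = 0.0501 that just missed the threshold. Without Mst1 1466, whose high array stood apart, the difference in Mst1 was 0.92 log2 with an adjusted p = 0.025, and it was called without Ntg 1301, Ntg 1657, dnPI3K 1648 or dnPI3K 3241 as well. In dnPI3K atria the high arrays had 5.51, 5.40, 6.04 and 5.77 and the low arrays 5.29, 5.48, 5.53 and 5.11, and in Ntg atria the high arrays had 6.14, 6.42, 5.91 and 5.55 and the low arrays 6.60, 5.23, 5.46 and 5.30. The ranges overlapped in both of these genotypes, and the differences of 0.33 and 0.35 log2 were not called (adjusted p = 0.47 and 0.47). Over all animals the difference was 0.62 ± 0.10 log2 (95% interval 0.42 to 0.82, adjusted p = 9.8e-05), positive in 14 of 16 animals. The 2 exceptions were dnPI3K 1648 and Ntg 1301. In Ntg 1301 the Bmp10-low array, labelled left, carried the highest Hcn4 of all low arrays. The fat marker summary ran over 6.16 to 7.76 log2 in the Ntg low arrays and over 5.92 to 7.88 in the dnPI3K-Mst1 low arrays. These are ranges over the low arrays of a genotype, and the value of Ntg 1301 itself is not given. The part of fat tissue in the Hcn4 value of Ntg 1301 was not tested.

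Hcn2, a second pacemaker channel that working myocardium also uses, did not pass the test between arrays. Bmp10-high arrays ran over 4.71 to 6.19 (median 5.76) log2 and Bmp10-low arrays over 5.55 to 6.45 (median 5.92). The difference was -0.15 ± 0.08 log2 (95% interval -0.31 to 0.01, adjusted p = 0.3), and it was positive in 7 of 16 animals. The lowest value, 4.71, was the Bmp10-high array of dnPI3K 3241, one of the 4 that stood apart.

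**Figure D1:**
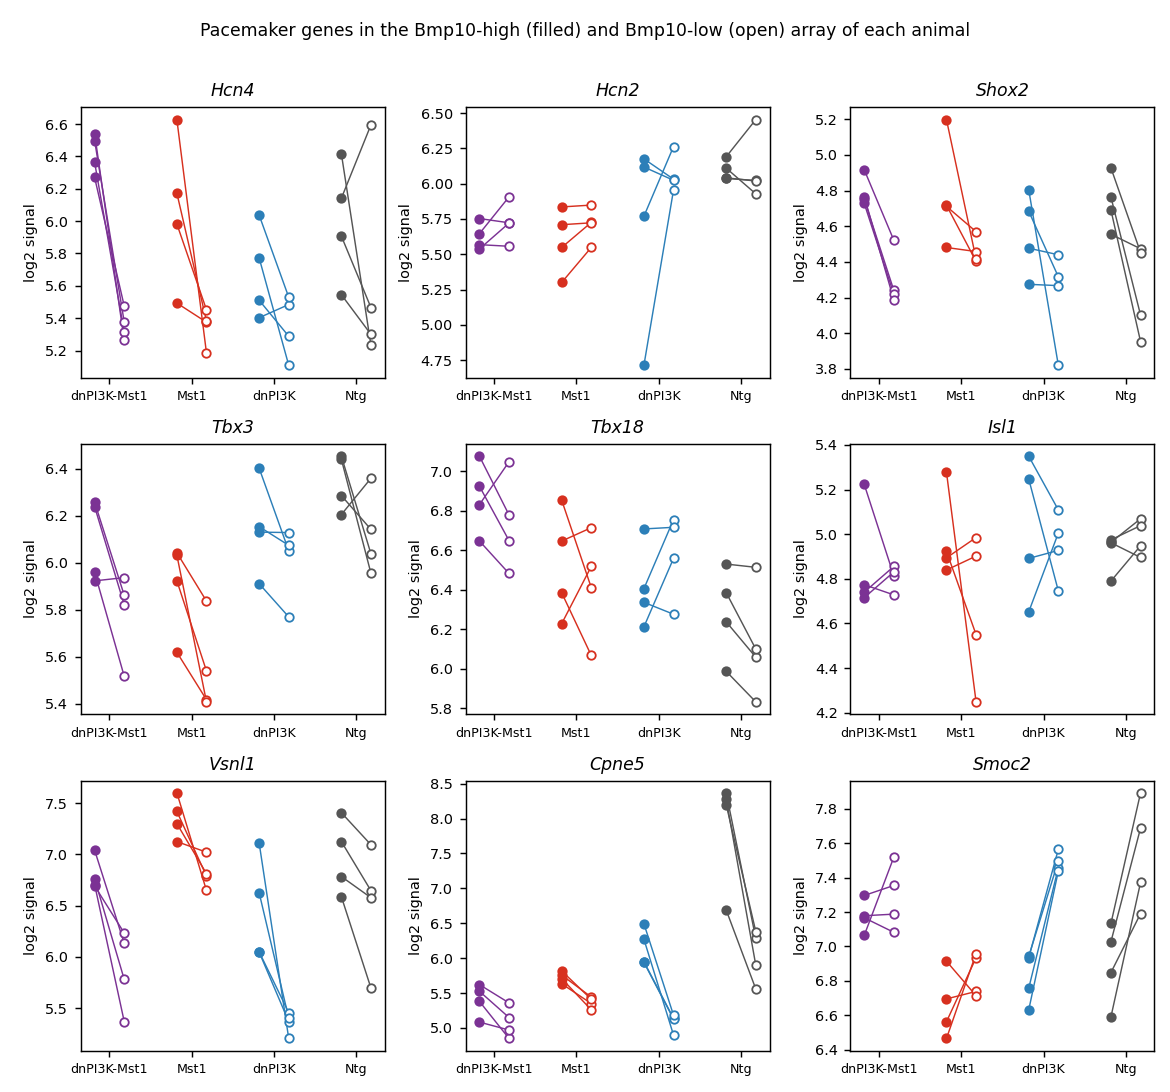
Log2 signal of each of the 9 pacemaker genes on both arrays of every animal, with genotypes from left to right and 4 animals each. Filled points are Bmp10-high arrays, open points Bmp10-low arrays, and a line joins the 2 arrays of an animal; each panel has its own vertical scale, which does not start at 0. Cpne5 falls in all 16 lines from filled to open, and its 4 filled Ntg points include 3 above 8 log2.

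Shox2, a homeobox factor that holds back the working myocardium programme in the mouse node, was dim and was higher in the Bmp10-high array of each animal. It ran over 4.27 to 5.20 (median 4.72) log2 in Bmp10-high arrays and over 3.82 to 4.57 (median 4.36) in Bmp10-low arrays, and the difference of 0.41 ± 0.07 log2 (95% interval 0.26 to 0.57, adjusted p = 0.00047) was positive in 16 of 16 animals. In dnPI3K-Mst1 the high arrays had 4.75, 4.73, 4.77 and 4.92, against 4.24, 4.22, 4.19 and 4.52 in the low arrays, and in Ntg the high arrays had 4.55, 4.76, 4.93 and 4.69, against 4.47, 4.10, 4.45 and 3.95 in the low arrays. Neither pair of ranges overlapped, while those of Mst1 and dnPI3K did. The differences per animal were 0.32, 0.14, 0.02 and 0.78 in Mst1 and 0.04, 0.01, 0.37 and 0.99 in dnPI3K, so some animals of these 2 genotypes differed little between their arrays. The low arrays had a median under the brightness limit of 4.48, so Shox2 passed that filter through its Bmp10-high arrays; without the filter the difference was the same and called (adjusted p = 0.00053). No single genotype passed the test on its own for Shox2 with all animals. Ntg did without Ntg 1301 or dnPI3K 3241 (adjusted p = 0.048 and 0.026), and dnPI3K-Mst1 did without dnPI3K 3241 (adjusted p = 0.042).

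Tbx3, a T-box repressor that marks the whole conduction system, was higher in the Bmp10-high array by 0.26 ± 0.06 log2 (95% interval 0.14 to 0.37, adjusted p = 0.0032), in 14 of 16 animals. Its differences were 0.40, 0.42, 0.44 and -0.01 in dnPI3K-Mst1, 0.20, 0.38, 0.21 and 0.62 in Mst1, 0.35, 0.00, 0.08 and 0.14 in dnPI3K and 0.49, 0.42, -0.15 and 0.14 in Ntg. Ntg 1662 and dnPI3K-Mst1 1650 went the other way.

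The remaining transcription factors were not called between arrays. Tbx18, a T-box factor of the sinus horn that the epicardium also expresses, differed by 0.06 ± 0.06 log2 (95% interval -0.06 to 0.18, adjusted p = 0.68) and was positive in 10 of 16 animals. Isl1, a LIM homeodomain factor of the node that cardiac neurons also express, differed by 0.10 ± 0.08 log2 (95% interval -0.06 to 0.26, adjusted p = 0.57) and was positive in 7 of 16. The largest Isl1 difference, 1.03, was in Mst1 1466, where the low array had 4.25, the lowest Isl1 value of all 32.

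Vsnl1, a calcium sensor of the visinin family and a marker of node myocytes, was higher in the Bmp10-high array of all 16 animals. In dnPI3K-Mst1 atria the high arrays had 6.76, 6.71, 7.04 and 6.69 log2, against 5.78, 5.37, 6.13 and 6.23 in the low arrays. In dnPI3K atria the high arrays had 6.05, 6.05, 6.63 and 7.11, against 5.46, 5.37, 5.40 and 5.21 in the low arrays. Both pairs of ranges were apart, and both differences were called, at 0.92 ± 0.17 log2 in dnPI3K-Mst1 (adjusted p = 0.0036) and 1.10 ± 0.17 in dnPI3K (adjusted p = 0.00023). Mst1 atria had 7.42, 7.60, 7.12 and 7.30 in the high arrays, against 6.79, 6.65, 7.02 and 6.81 in the low ones, and Ntg atria had 7.41, 7.12, 6.59 and 6.78, against 7.09, 6.65, 5.70 and 6.58. The Mst1 ranges did not overlap and the Ntg ranges did; the differences of 0.54 and 0.47 log2 were not called (adjusted p = 0.12 and 0.17). Without dnPI3K 3241 the Mst1 difference was called (adjusted p = 0.043). No genotype differed from Ntg in this difference by its own test (adjusted p = 0.65, 0.95 and 0.44 for dnPI3K-Mst1, Mst1 and dnPI3K).

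Cpne5, a calcium-dependent phospholipid-binding copine and a marker of node myocytes, gave the clearest pattern of the set. In the atria with the Mst1 transgene the arrays lay close together. In dnPI3K-Mst1 the Bmp10-high arrays had 5.38, 5.08, 5.62 and 5.53 log2, against 4.85, 4.97, 5.36 and 5.15 in the Bmp10-low arrays, and in Mst1 the high arrays had 5.63, 5.76, 5.71 and 5.82, against 5.35, 5.44, 5.26 and 5.41 in the low ones. Their differences of 0.32 ± 0.14 and 0.36 ± 0.14 log2 were not called (adjusted p = 0.6 and 0.24), although all 8 animals were positive and the Mst1 ranges did not overlap. In dnPI3K atria the high arrays had 5.95, 5.94, 6.49 and 6.27, against 5.14, 5.13, 5.18 and 4.90 in the low ones, a difference of 1.08 ± 0.14 (adjusted p = 2.8e-05). In Ntg atria the high arrays had 8.37, 8.28, 6.69 and 8.20, against 6.28, 5.90, 5.56 and 6.38 in the low ones, a difference of 1.85 ± 0.14 log2 (adjusted p = 1.1e-08). In both of these genotypes every high array lay above every low one. The difference between arrays was itself smaller than in Ntg by 1.53 log2 in dnPI3K-Mst1 (a change of -1.53 ± 0.20, adjusted p = 9.3e-05) and by 1.49 in Mst1 (a change of -1.49 ± 0.20, adjusted p = 0.00016). For dnPI3K the change of -0.78 ± 0.20 was not called (adjusted p = 0.19). It was called without Ntg 1662, at -1.02 log2 (adjusted p = 0.02); that animal's Bmp10-high array, one of those that stood apart, had 6.69 log2 against 8.20 to 8.37 in the other Ntg mice. Of the 9 members Cpne5 alone was called in these genotype tests, where 0.999% of all genes were called for dnPI3K-Mst1 against Ntg, 1.17% for Mst1 and 0.125% for dnPI3K. At an unadjusted p under 0.05, 3, 2 and 2 members passed in these 3 tests, beside 1348, 1697 and 1330 of 15219 genes. The low arrays of Cpne5 ran down to 4.85 log2, against a brightness limit of 4.48. The part of a signal floor in its smaller differences was not tested.

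Smoc2, a secreted matrix protein, was the member that ran against Bmp10. In dnPI3K-Mst1 atria the difference between arrays was -0.11 ± 0.11 log2 and in Mst1 atria -0.18 ± 0.11, neither of them called (adjusted p = 1 and 0.52). In dnPI3K atria it had 6.93, 6.76, 6.94 and 6.63 log2 in the high arrays, against 7.56, 7.46, 7.50 and 7.44 in the low arrays, and in Ntg atria 7.13, 6.85, 7.03 and 6.59, against 7.89, 7.19, 7.69 and 7.37. Neither pair overlapped, and both differences were called, at -0.67 ± 0.11 log2 (adjusted p = 0.0004) and -0.64 ± 0.11 (adjusted p = 0.00088). The smaller difference with the Mst1 transgene was not called in its own test, with changes against Ntg of 0.53 log2 in dnPI3K-Mst1 and 0.46 in Mst1 (adjusted p = 0.15 and 0.22). Over all animals Smoc2 was lower in the high array, at -0.40 ± 0.06 log2 (adjusted p = 2.2e-05), in 14 of 16 animals.

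Counted by genotype, 2 members were called between arrays in dnPI3K-Mst1 (Hcn4 and Vsnl1, against 1.58% of all genes). None was called in Mst1 (against 2.35%), 3 in dnPI3K (Vsnl1, Cpne5 and Smoc2, against 4.8%) and 2 in Ntg (Cpne5 and Smoc2, against 3.65%). In Mst1, 5 members had an unadjusted p under 0.05, beside 2038 of the 15219 genes tested. By labelled side no member was called with all animals in the average over genotypes, and 1 was called in dnPI3K. In the limma fit of labelled right minus labelled left, averaged over genotypes, 0 of 9 members were called, against 0.00657% of all genes. An unadjusted p under 0.05 in this average was reached by 4 of the 9 members and 1240 of the 15219 genes tested. That average mixes both Bmp10 levels on each side. Without Mst1 1839, 3 members were called, and without Ntg 1301 or Ntg 1662, 2 were. In dnPI3K, where labelled side and Bmp10 level coincide, Vsnl1 was called at -1.10 ± 0.22 log2 for labelled right minus labelled left (adjusted p = 0.021), against 0.999% of all genes.

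**Figure D2:**
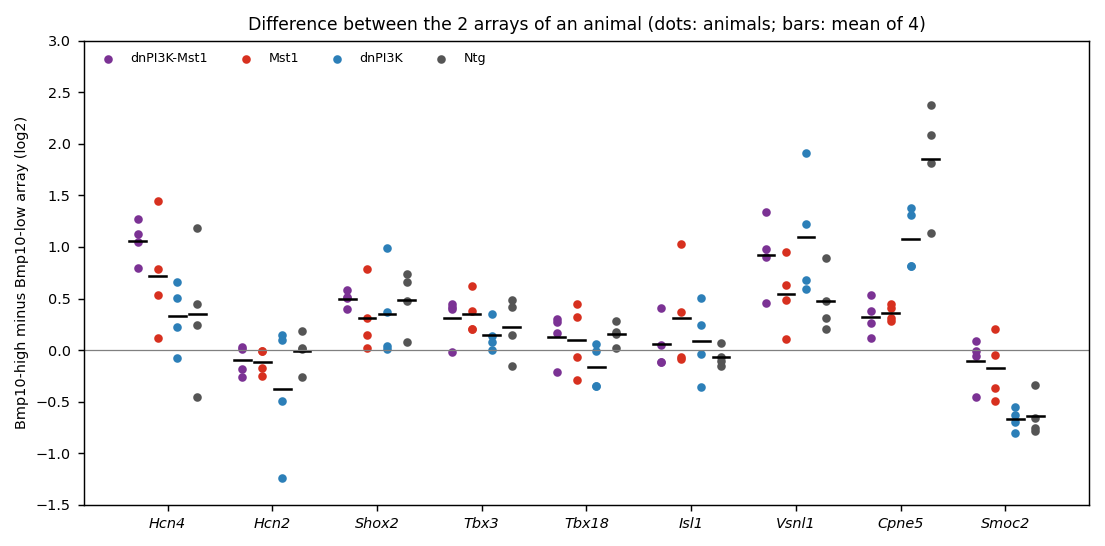
Difference in log2 signal between the Bmp10-high and the Bmp10-low array of an animal, for each pacemaker gene. Each dot is an animal, colours mark the genotype and black bars the mean of 4 animals. All 16 dots of Shox2, Vsnl1 and Cpne5 lie above 0, and the Ntg dots of Cpne5 lie between 1.13 and 2.38, above all 8 dots of the Mst1 and dnPI3K-Mst1 animals.

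Markers of other cells also differed between the arrays of an animal. Of 8 fibroblast markers, 1 was called higher in the Bmp10-high array (Tcf21, 0.55 log2) and 3 lower (Lum, -0.34, Col3a1, -0.31, and Col1a2, -0.24). Of 10 markers of epicardium and mesothelium, 1 was called higher (Wt1, 0.28) and 3 lower (Muc16, -0.50, Msln, -0.37, and Bnc1, -0.23). Of 9 tested markers of cardiac neurons and glia, Dbh was called higher (0.37 log2) and Sox10 lower (-0.23). Over all genes 3.08% were called higher and 5.42% lower. The 9 neuron and glia genes had mean levels of 5.11 to 5.79 log2 in the Bmp10-high arrays and 5.19 to 5.77 in the Bmp10-low arrays. Fibroblast markers had 9.27 to 10.4 in the high arrays and 9.28 to 11.1 in the low arrays, and epicardial markers 5.49 to 7.03 and 5.43 to 7.23. Of 5 ventricular markers, 1 was called higher and 0 lower, with a list median of 0.05 log2. The called marker was Myl2, at 1.25 log2, with a positive difference in 14 animals and a negative one in 2. Its difference was 6.31 log2 in dnPI3K 1648, where the Bmp10-high array had a value of 10.7. In Ntg 1834 it was -1.97, with 7.65 in the Bmp10-low array. The part of these cells in the differences of the pacemaker genes was not tested.

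Other sinoatrial genes were read from a separate list of 25 ion channels, G-protein regulators, ligands and factors, of which 24 were named on the array and 22 tested. That list was also chosen with earlier results of these data known. Between arrays of an animal, 8 of the 22 were called higher and 4 lower in the Bmp10-high array, against 3.08% and 5.42% of all genes. The median was 0.10 log2, against -0.02 over all genes. Cacna1d, the L-type calcium channel of pacemaker cells, was higher by 0.75 ± 0.06 log2 (adjusted p = 7.5e-09), in 16 of 16 animals. It was called in each genotype, at 0.72 in dnPI3K-Mst1, 0.72 in Mst1, 0.80 in dnPI3K and 0.77 in Ntg. Rgs6, a regulator of G-protein signalling that limits vagal slowing in the mouse, was higher by 0.53 ± 0.05, in 12 of 16 animals. In Mst1 it was higher in 1 animal and lower in 3. Cacna1h, a T-type calcium channel, was higher by 0.44 ± 0.05. Bmp4, a signalling ligand, was lower, at -0.58 ± 0.07 (adjusted p = 3e-06).

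Like Cpne5, Rgs6 differed less between arrays in the genotypes with the Mst1 transgene than in Ntg. Its level was higher there than in Ntg, while that of Cpne5 was lower. In dnPI3K-Mst1 atria Rgs6 had 9.36 to 9.55 log2 in Bmp10-high arrays, against 8.82 to 9.52 in Bmp10-low arrays. In Mst1 atria it had 9.04 to 9.39, against 9.24 to 9.49. In dnPI3K atria it had 8.92 to 9.17 in high arrays, against 7.78 to 8.37 in low arrays, and in Ntg atria 8.67 to 9.15, against 7.77 to 7.91. The ranges were apart in the 2 genotypes without the Mst1 transgene and overlapped in the 2 with it. The change in the difference was -0.91 ± 0.15 log2 for dnPI3K-Mst1 against Ntg (adjusted p = 0.0019) and -1.26 ± 0.15 for Mst1 against Ntg (adjusted p = 4.4e-05). In both genotypes with the transgene, the low arrays of Rgs6 lay above all low arrays of Ntg, while the high arrays of Cpne5 lay below all high arrays of Ntg. Igfbp5, an insulin-like growth factor binding protein, changed by -1.38 ± 0.23 for dnPI3K-Mst1 against Ntg (adjusted p = 0.0012) and -1.28 ± 0.23 for Mst1 against Ntg (adjusted p = 0.0029). In all, 2 of the 22 genes were called in the first of these tests and 5 in the second, all of them negative. Over all genes 0.999% and 1.17% were called in either direction.

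Among the genotypes, compared on the mean of both arrays of an animal, Cpne5 stood out and Hcn4 did not. Cpne5 was lower in all 3 transgenic genotypes than in Ntg, Hcn2 and Tbx3 were lower in both genotypes with the Mst1 transgene, and Tbx18 was higher in dnPI3K-Mst1. Vsnl1 was lower in dnPI3K and Smoc2 lower in Mst1. Hcn4, Shox2 and Isl1 were not called in any genotype comparison that used all animals and both arrays. For dnPI3K-Mst1 against Ntg, 1 of 9 members was called higher and 3 lower, against 16.4% and 14.2% of all genes tested. For Mst1 against Ntg none was called higher and 4 lower, against 12.6% and 14.2%, and for dnPI3K against Ntg 2 were called lower, against 2.75%. The median difference of the 9 members was -0.12, -0.13 and -0.16 log2 in these 3 comparisons, and that of all genes lay within 0.02 log2 of 0 in each. The 3 comparisons share the Ntg mice.

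Cpne5 had animal means of 5.12, 5.03, 5.49 and 5.34 log2 in dnPI3K-Mst1, 5.49, 5.60, 5.48 and 5.61 in Mst1, 5.54, 5.53, 5.84 and 5.58 in dnPI3K and 7.33, 7.09, 6.12 and 7.29 in Ntg. Every transgenic animal lay below every Ntg animal. The differences from Ntg were -1.71 ± 0.18 log2 in dnPI3K-Mst1 (3.28-fold lower, adjusted p = 5.6e-07), -1.41 ± 0.18 in Mst1 (2.66-fold, adjusted p = 7.6e-06) and -1.33 ± 0.18 in dnPI3K (2.52-fold, adjusted p = 0.00019). By mean level over both arrays Ntg came first, followed by dnPI3K, Mst1 and dnPI3K-Mst1. Mst1 and dnPI3K animals overlapped and were not compared in a test, and in Bmp10-low arrays dnPI3K was the lower of them. On animal means dnPI3K-Mst1 was not called different from Mst1 or dnPI3K. Its animals lay below all dnPI3K animals without overlap, and in Bmp10-high arrays alone that difference was called (-0.76 log2, adjusted p = 0.048), against -0.0043 in Bmp10-low arrays (adjusted p = 0.99). In Bmp10-high arrays alone the differences were -2.48, -2.15 and -1.72 log2 for dnPI3K-Mst1, Mst1 and dnPI3K. In Bmp10-low arrays alone they were -0.95, -0.66 and -0.94. All 6 were called, so Cpne5 was lower than in Ntg in both kinds of array. The dnPI3K difference was not called in the arrays labelled left alone (-0.92 log2, adjusted p = 0.35). The double transgenic lay 1.03 ± 0.26 log2 above the sum of the single transgene differences (departure from additivity, adjusted p = 0.078), which was not called. Without Ntg 1662 it was 1.31 log2 (adjusted p = 0.00015). In dnPI3K-Mst1 Cpne5 was at 4.85 to 5.36 log2 in low arrays and 5.08 to 5.62 in high arrays, against a brightness limit of 4.48. How far a floor of the signal limited a further fall was not tested. With all animals, 4 of 9 members had an unadjusted p under 0.05 for the departure from additivity, beside 1657 of the 15219 genes tested. After adjustment 0 of 9 members departed from additivity in limma, against 0.513% of all genes. Smoc2 did without Ntg 1834, at 0.63 log2 (adjusted p = 0.042).

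Of the channels, Hcn4 averaged 5.89 ± 0.04 log2 in dnPI3K-Mst1, 5.71 ± 0.20 in Mst1, 5.52 ± 0.18 in dnPI3K and 5.82 ± 0.40 in Ntg (SD, n = 4 each). The 95% intervals of its differences from Ntg ran over -0.24 to 0.37 in dnPI3K-Mst1, -0.42 to 0.19 in Mst1 and -0.61 to -0.00 in dnPI3K. The dnPI3K-Mst1 animals all lay above the dnPI3K animals, by 0.37 ± 0.15 log2, with an adjusted p = 0.079; in Bmp10-high arrays alone the difference was 0.74 (adjusted p = 0.016), and in Bmp10-low arrays alone it was 0.0041 (adjusted p = 0.99), with overlapping ranges. Hcn2 had animal means of 5.78, 5.56, 5.74 and 5.63 log2 in dnPI3K-Mst1, 5.42, 5.64, 5.84 and 5.72 in Mst1, 6.02, 6.10, 6.07 and 5.33 in dnPI3K and 6.03, 6.03, 6.32 and 6.02 in Ntg. Both groups with the Mst1 transgene lay wholly below Ntg, at -0.42 ± 0.14 log2 in dnPI3K-Mst1 (adjusted p = 0.022) and -0.45 ± 0.14 in Mst1 (adjusted p = 0.019). The dnPI3K difference of -0.22 ± 0.14 was not called (adjusted p = 0.46). Both Hcn2 calls depended on single animals: without Ntg 1662 the adjusted p was 0.084 in dnPI3K-Mst1 and 0.072 in Mst1, without Mst1 1466 it was 0.055 in Mst1, and without dnPI3K-Mst1 1647 or 1650 it was 0.062 or 0.051. In Bmp10-high arrays alone the Hcn2 differences were -0.47 in dnPI3K-Mst1 and -0.50 log2 in Mst1, neither called (adjusted p = 0.15 and 0.14). In Bmp10-low arrays alone they were -0.38 and -0.39, both called.

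The transcription factors went in different directions. Tbx3 had animal means of 6.06, 6.03, 5.74 and 5.93 log2 in dnPI3K-Mst1, 5.52, 5.73, 5.94 and 5.72 in Mst1, 6.23, 6.13, 6.11 and 5.84 in dnPI3K and 6.20, 6.25, 6.28 and 6.21 in Ntg. The 4 Mst1 and 4 dnPI3K-Mst1 animals lay below the 4 Ntg animals, and dnPI3K overlapped them. The difference was -0.51 ± 0.10 log2 in Mst1 (adjusted p = 0.00049), a call that held in 27 of 27 alternatives. In dnPI3K-Mst1 it was -0.30 ± 0.10 (adjusted p = 0.025), a call lost without dnPI3K-Mst1 1649 or 1650 or Ntg 1657 or 1662 (adjusted p = 0.10, 0.051, 0.051 and 0.061). It was also lost in Bmp10-high arrays alone (-0.25, adjusted p = 0.21) and in the arrays labelled left alone (-0.17, adjusted p = 0.47).

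Tbx18 had animal means of 6.94, 6.93, 6.56 and 6.79 log2 in dnPI3K-Mst1, 6.37, 6.63, 6.22 and 6.68 in Mst1, 6.58, 6.30, 6.71 and 6.38 in dnPI3K and 6.52, 6.15, 5.91 and 6.24 in Ntg. All dnPI3K-Mst1 animals lay above all Ntg animals, by 0.60 ± 0.13 log2 (1.51-fold, adjusted p = 0.0014), and this call held in 27 of 27 alternatives. Mst1 and dnPI3K averaged between them, at 0.27 ± 0.13 and 0.29 ± 0.13 log2 from Ntg, not called (adjusted p = 0.14 and 0.26). Without Ntg 1301 the Mst1 difference was called, at 0.38 (adjusted p = 0.038). Tbx18 is also expressed by epicardium and fibroblasts. Of the 8 fibroblast markers, dnPI3K-Mst1 had 7 called higher and Mst1 had 2 called higher, both against Ntg, beside 16.4% and 12.6% of all genes. Of the 10 epicardial markers 0 were called in dnPI3K-Mst1 and 5 were lower in Mst1, where 14.2% of all genes were. The fibroblast summary was 10.03 to 11.07 log2 in dnPI3K-Mst1 arrays and 9.28 to 10.09 in Ntg arrays. Their part in Tbx18 was not tested.

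Shox2 averaged 4.54 ± 0.12 log2 in dnPI3K-Mst1, 4.62 ± 0.14 in Mst1, 4.39 ± 0.11 in dnPI3K and 4.49 ± 0.16 in Ntg, and Isl1 averaged 4.84 ± 0.12, 4.83 ± 0.09, 4.99 ± 0.17 and 4.96 ± 0.07 in the same order. The 95% intervals of the differences from Ntg ran over -0.15 to 0.25, -0.07 to 0.33 and -0.30 to 0.10 log2 for Shox2 in dnPI3K-Mst1, Mst1 and dnPI3K. For Isl1 they ran over -0.31 to 0.07, -0.31 to 0.06 and -0.15 to 0.22 in the same order.

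Vsnl1 had animal means of 6.27, 6.04, 6.59 and 6.46 log2 in dnPI3K-Mst1, 7.10, 7.12, 7.07 and 7.06 in Mst1, 5.75, 5.71, 6.02 and 6.16 in dnPI3K and 7.25, 6.88, 6.14 and 6.68 in Ntg. The Mst1 animals lay close together and above all dnPI3K-Mst1 and dnPI3K animals, and the widely spread Ntg animals overlapped all 3 transgenic genotypes. In dnPI3K it was lower than in Ntg, at -0.83 ± 0.17 log2 (1.78-fold, adjusted p = 0.0064). The dnPI3K-Mst1 difference from Ntg, -0.40 ± 0.17, was not called (adjusted p = 0.079), and without Ntg 1662 it was -0.60 (adjusted p = 0.0032). The Mst1 difference of 0.35 ± 0.17 was not called either (adjusted p = 0.14), and without Ntg 1301 it was 0.52 (adjusted p = 0.017). Against Mst1, dnPI3K-Mst1 atria were lower, at -0.75 ± 0.17 log2 (adjusted p = 0.016), with no overlap, a call lost without dnPI3K-Mst1 1647 (-0.65, adjusted p = 0.067) and in Bmp10-high arrays alone (-0.56, adjusted p = 0.3). By class of array, the dnPI3K difference from Ntg was -0.52 log2 in Bmp10-high arrays (adjusted p = 0.29) and -1.14 in Bmp10-low arrays (adjusted p = 0.0051), and only the low arrays separated without overlap. In the arrays labelled left alone it was -0.21 (adjusted p = 0.78), not called.

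Smoc2 had animal means of 7.33, 7.29, 7.12 and 7.18 log2 in dnPI3K-Mst1, 6.75, 6.72, 6.71 and 6.81 in Mst1, 7.25, 7.11, 7.22 and 7.03 in dnPI3K and 7.51, 7.02, 7.36 and 6.98 in Ntg. Mst1 animals were the lowest of the 4 genotypes, below every animal of the other 3. The difference from Ntg was -0.47 ± 0.10 log2 (adjusted p = 0.0014), and dnPI3K-Mst1 was higher than Mst1 by 0.48 ± 0.10 (adjusted p = 0.01). The Mst1 difference from Ntg was -0.24 log2 in Bmp10-high arrays alone, not called (adjusted p = 0.25), and -0.70 in Bmp10-low arrays alone (adjusted p = 0.00046). With all 32 arrays in a fit that treats the animal as a random block, the dnPI3K-Mst1 against Mst1 calls of Smoc2 and Vsnl1 were lost (adjusted p = 0.075 and 0.11), as was that of Vsnl1 in dnPI3K against Ntg (0.069). Smoc2 and Vsnl1 were the 2 members called in dnPI3K-Mst1 against Mst1, against 3.5% of all genes. Between dnPI3K-Mst1 and dnPI3K 3 of 9 members had an unadjusted p under 0.05 in limma, beside 5003 of the 15219 genes tested. After adjustment 0 of 9 members were called, against 21.6% of all genes. Single animals changed this: Hcn4 was called without Ntg 1301, Ntg 1834 or dnPI3K 1660 (adjusted p = 0.019, 0.047 and 0.041) and Vsnl1 without Ntg 1301, Ntg 1662 or dnPI3K-Mst1 1647 (adjusted p = 0.036, 0.022 and 0.04). Hcn2 was called without dnPI3K 3241 (-0.39 log2, adjusted p = 0.0099) and Cpne5 without Ntg 1662 (-0.38, adjusted p = 0.0091).

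**Figure D3:**
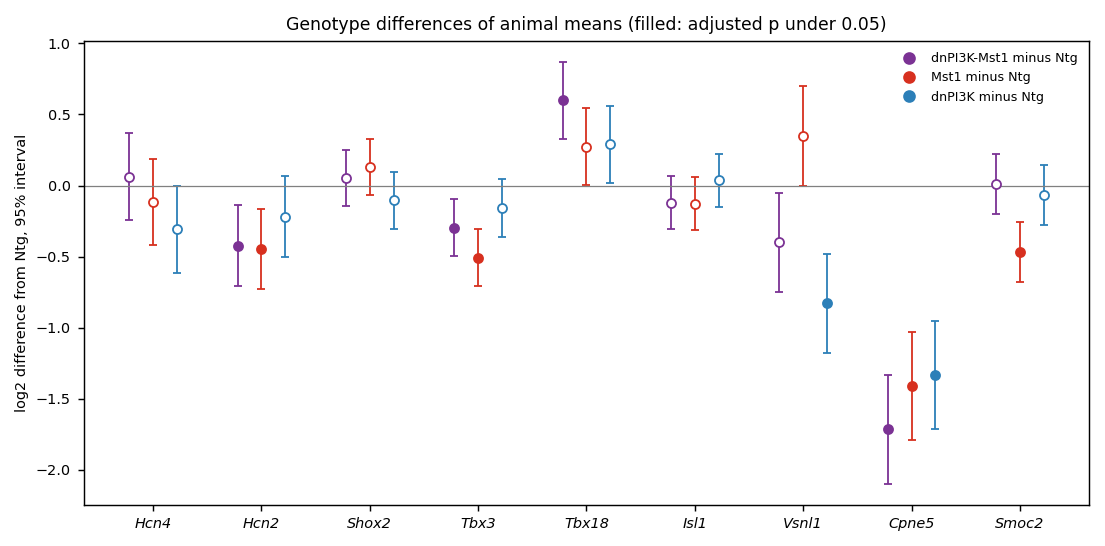
Log2 difference from Ntg of the animal means of each pacemaker gene in dnPI3K-Mst1, Mst1 and dnPI3K, with 95% intervals from the limma fit and 4 animals per genotype. Filled points passed an adjusted p of 0.05. Cpne5 lies between -1.71 and -1.33 in all 3 comparisons, while Hcn4, Shox2 and Isl1 have open points throughout.

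Split by Bmp10 level, members called against Ntg numbered 2 in the Bmp10-high arrays of dnPI3K-Mst1 (Cpne5 and Tbx18, against 16.6% of all genes) and 5 in its low arrays (Hcn2, Tbx3, Tbx18, Vsnl1 and Cpne5, against 29.8%). In Mst1 they numbered 2 in the high arrays (Cpne5 and Tbx3, against 14.8%) and 4 in the low arrays (Hcn2, Tbx3, Cpne5 and Smoc2, against 27%). The 4 arrays that stood apart were all Bmp10-high ones.

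The other sinoatrial genes split by genotype as well. Of the 22, 5 were called higher and 4 lower in dnPI3K-Mst1 than in Ntg, 4 higher and 5 lower in Mst1, and 1 lower in dnPI3K, with medians of 0.00, -0.10 and -0.03 log2. Over all genes 16.4% were called higher and 14.2% lower in dnPI3K-Mst1, 12.6% and 14.2% in Mst1, and 2.75% lower in dnPI3K. Bmp4 was higher by 2.07 ± 0.17 log2 in dnPI3K-Mst1 (adjusted p = 2.1e-08) and 1.53 ± 0.17 in Mst1 (adjusted p = 1.1e-06), and Rgs6 by 0.99 ± 0.10 and 0.91 ± 0.10. Bmp2, a ligand active in the atrioventricular canal and conduction system, was higher by 1.06 ± 0.21 in dnPI3K-Mst1. Kcnj3, a subunit of the acetylcholine-activated potassium channel of node and atrium, was lower, at -1.10 ± 0.10 in dnPI3K-Mst1 (adjusted p = 8.5e-08) and -1.04 ± 0.10 in Mst1 (adjusted p = 2.4e-07). Ntm, a cell adhesion protein, was lower, at -0.84 ± 0.10 in Mst1. The one gene called in dnPI3K was Cacna1h, at -0.57 ± 0.14 (adjusted p = 0.022).

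**Figure D4:**
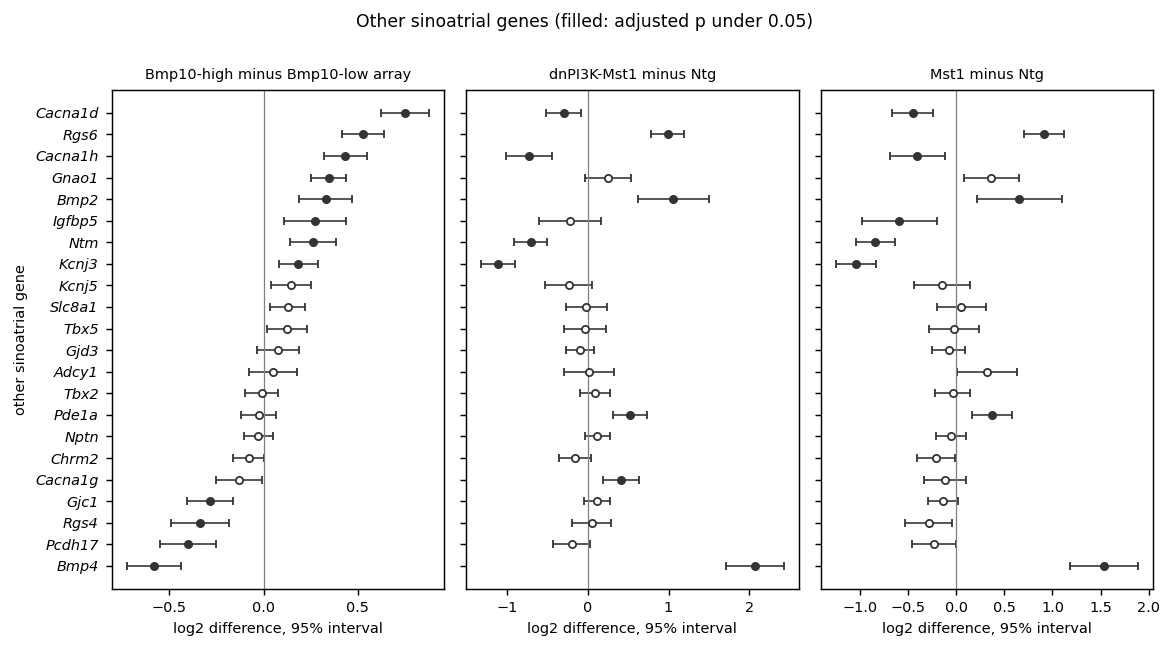
Log2 differences of the 22 tested genes of the separate sinoatrial list, with 95% intervals, for Bmp10-high minus Bmp10-low arrays within animals (left), dnPI3K-Mst1 minus Ntg (middle) and Mst1 minus Ntg (right), each on its own scale. Filled points passed an adjusted p of 0.05. Cacna1d is the highest gene in the left panel at 0.75, and Bmp4 lies at -0.58 there, at 2.07 in the middle and at 1.53 on the right.

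Genes of working myocardium that the node keeps low were set beside these. Of 9 tested, none was called between the arrays of an animal in the limma average over the 4 genotypes. Within dnPI3K, 1 was called lower, beside 4.8% of all genes called in either direction. In dnPI3K-Mst1 2 were called higher and 6 lower than in Ntg, and in Mst1 1 higher and 4 lower, beside the same shares of all genes (16.4% and 14.2% in dnPI3K-Mst1, 12.6% and 14.2% in Mst1). Gja5, the connexin of fast atrial conduction, was lower, at -1.43 ± 0.13 log2 in Mst1 (adjusted p = 1.5e-07), and Nppb, a natriuretic peptide of stressed myocardium, was higher by 1.51 ± 0.16 (adjusted p = 9.8e-07). Of the 9 tested neuron and glia markers, 1 was called higher and 2 lower in each of dnPI3K-Mst1 and Mst1, led by Uchl1 at 2.18 and 2.78 log2.

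Across the 32 arrays, with each genotype's mean removed, the members did not move as a single block. The 36 pairwise Pearson correlations ran from -0.73, between Cpne5 and Smoc2, to 0.75, between Hcn4 and Shox2, with a median of 0.14. The arrays share animals and Bmp10 class, so these values describe the set and carry no test. The tested genes most like each member, 3 per member by the same correlation, were Cntn2, Eya4 and Eya2 for Hcn4 (0.79, 0.79 and 0.78). Cntn2 encodes a cell adhesion protein known from the cardiac conduction system. For Cpne5 they were Slc24a4, Slc39a8 and Adm (0.90, 0.88 and 0.86), for Vsnl1 Npy1r, Cdk8 and Pde1c (0.88, 0.79 and 0.79), and for Smoc2 Ace, Mrc1 and F13a1 (0.89, 0.88 and 0.87). Mrc1 and F13a1 are genes of resident macrophages. For Hcn2 they were Kif2a, Zfpm1 and Rab11fip5 (0.85, 0.83 and 0.83), and for Shox2 Cd300lg, Hcn4 and Vsig4 (all 0.75), so that Hcn4 was the only member among the 3 most like another member. Tbx3 was most like Drp2, Denn2b and Pak6 (0.73, 0.70 and 0.70), Tbx18 like Ano6, Sh3d19 and Pros1 (0.73, 0.72 and 0.72), and Isl1 like Sfi1, Mir199a-1 and Dcpp1 (0.73, 0.67 and 0.65).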

How the data were processed

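The deposited values were log2 signals of 35512 probe sets on 32 arrays, made by the authors from 100 ng of total RNA per array with Affymetrix Expression Console and PLIER, per the submitters' processing notes and the labels. The log base was read from the range of the values, and the genome build behind the probe sets is not given in the sources used here. Gene symbols came from the platform annotation: 21789 probe sets had 1 symbol, 1621 several and 12102 none, and probe sets with several or none were not used. The brightest probe set stood for a gene, and genes with a mean at or above the 30th percentile of all probe sets (4.48 log2) were tested.

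From these values, limma 3.58.1 in R 4.3.3 was fitted with an intensity trend over 15219 genes and Benjamini-Hochberg adjustment, with calls at an adjusted p under 0.05. Genotypes were compared on the mean of both arrays of an animal, and arrays within an animal on their difference. The fits were tested on simulated data with independent noise on each array, so the correlation between the arrays of an animal was not simulated. The 2 arrays of an animal share that animal: deviations from the group means (genotype and Bmp10 class) correlated at a median of 0.22, and 12 of 16 animals exceeded 0.1. The pairing by animal comes from the labels. Whether mice shared a litter is not given.

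All 9 members were tested in every comparison, and not every value is printed. Of the other lists, counts cover the whole list and at most 4 called genes with the largest change are named. The members and lists were chosen with earlier results of these data known. Alternatives changed the filter, the scaling, the probe set rule, the variance trend, the Bmp10 cut, the arrays used, the block and the animals.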

Additional observations from a re-analysis of the deposited data

Results flagged for a closer look

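Of 144 sets of 4 animals (a gene, a genotype and a level or difference), 11 held an animal whose gap to its nearest neighbour took up more of the range than Dixon's criterion allows; chance alone marks about 1 in 20 sets. In the mean of both arrays these were Shox2 in dnPI3K-Mst1 1650 at 4.72 log2, Hcn4 at 5.78 and Cpne5 at 5.84 in dnPI3K 1660, and Hcn2 at 5.33 in dnPI3K 3241. Hcn2 in Ntg 1662 was also far from the other Ntg means, at 6.32 log2. In Bmp10-high arrays they were Isl1 in dnPI3K-Mst1 1647 at 5.22, Isl1 in Ntg 1834 at 4.79 and Cpne5 in Ntg 1662 at 6.69. In Bmp10-low arrays they were Shox2 in dnPI3K-Mst1 1650 at 4.52 and Hcn4 in Ntg 1301 at 6.60. The difference between arrays of Tbx3 in dnPI3K-Mst1 1650 was -0.0139 log2, against 0.40 to 0.44 in the other 3 animals.

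The Cpne5 difference between the arrays of an animal differed between genotypes by a test of that difference (limma). Relative to Ntg the change was -1.53 log2 in dnPI3K-Mst1 and -1.49 log2 in Mst1.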

How the results depend on the processing

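No value of a called member changed direction under any alternative run; where a count moved, the cause was not tested. Leaving out 1 animal at a time, 310 values of called members kept the call and 10 lost it, and under the other settings 177 kept it and 19 lost it. Members called for Mst1 against Ntg were 4, and 2 in the arrays labelled left or Bmp10-high arrays alone. For dnPI3K against Ntg they were 2, and 0 labelled left, 1 Bmp10-high and 1 with the animal as a random block. For dnPI3K-Mst1 against Ntg they were 4, and 2 labelled left or Bmp10-high. For dnPI3K-Mst1 against Mst1 they were 2, and 0 labelled left, 0 Bmp10-high, 1 Bmp10-low and 0 with the random block. For dnPI3K-Mst1 against dnPI3K they were 0, and 3 without the 4 animals that had an array apart, 1 labelled right, 3 Bmp10-high and 1 Bmp10-low. In Bmp10-high arrays these were Hcn4 and Tbx18, higher, and Cpne5, lower, and in Bmp10-low arrays Hcn2, lower (-0.34 log2). Non-additivity and the dnPI3K against Ntg change in the difference between arrays had 0, and 1 without those 4 animals. Labelled side had 0, and 1 after quantile normalization.

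Without each animal in turn, members called ranged from 3 to 6 for Mst1, 2 to 2 for dnPI3K and 2 to 4 for dnPI3K-Mst1 against Ntg, 1 to 2 for dnPI3K-Mst1 against Mst1, 0 to 2 against dnPI3K and 0 to 1 for non-additivity. They were 6 to 6 for the Bmp10 difference, 1 to 1 for its change in dnPI3K-Mst1 and in Mst1, 0 to 1 for that in dnPI3K, and 0 to 3 for labelled side, with 3 without Mst1 1839.

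The pairing of arrays by animal was dropped in a fit with no replicate block: the Bmp10 difference kept 6 members called, its change kept 1, 1 and 0 in dnPI3K-Mst1, Mst1 and dnPI3K, and labelled side kept 0. With the animal as a random replicate block, Mst1 and dnPI3K-Mst1 against Ntg had 4 members called each, and dnPI3K-Mst1 against dnPI3K and non-additivity 0.

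Over all genes, 4658 were called for dnPI3K-Mst1 against Ntg, and 2417 labelled left and 2532 Bmp10-high. For Mst1 against Ntg 4084 were called, and 2129 and 2249; for dnPI3K against Ntg 616, and 105 and 150, with 339 labelled right and 278 without the 4 animals. For dnPI3K-Mst1 against Mst1 532 were called, and 74, 135, 102 and 903 in the same settings, and against dnPI3K 3292, with 1763, 1972 and 2187 in the first 3. Non-additivity had 78, and 0, 33 and 24. With no replicate block the Bmp10 difference had 819 in place of 1293, its change 63 in place of 152 in dnPI3K-Mst1, 89 in place of 178 in Mst1 and 6 in place of 19 in dnPI3K (12 with no trend), and labelled side 26 in place of 1 (19 after quantile normalization, 0 without the 4 animals). Without 1 animal these counts ranged from 378 (Ntg 1662) to 1013 (Mst1 1466) for dnPI3K against Ntg, 249 (Mst1 1839) to 765 (Mst1 1466) for dnPI3K-Mst1 against Mst1 and 54 (dnPI3K-Mst1 1509) to 207 (Mst1 1466) for non-additivity. The change in the difference between arrays ranged from 2 (Ntg 1657) to 37 (Mst1 1466) in dnPI3K, and labelled side reached 333 without Mst1 1839.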

Other observations

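Genes listed for smooth muscle, skeletal muscle and fat differed between the genotypes (limma, animal means). The cells that carried these changes were not identified. Of 5 smooth muscle genes, 3 were higher than in Ntg in dnPI3K-Mst1 and the same number in Mst1. Cnn1, a smooth muscle calponin, was higher by 2.17 and 2.56 log2. Tagln, an actin-binding protein, was higher by 2.04 and 1.71, and the smooth muscle actin Acta2 by 0.92 and 0.64. Of 4 tested skeletal muscle markers, 2 were higher and 1 lower in each of dnPI3K-Mst1 and Mst1. Myh4 and Myh1 of the same list were below the brightness filter. Tnnt3, a fast skeletal troponin T, was higher by 1.26 and 1.07 log2, and the skeletal actin Acta1 by 0.52 and 0.72. Ckm, the muscle creatine kinase, which working heart muscle also expresses, was lower, at -4.05 ± 0.15 log2 in dnPI3K-Mst1 (SE, adjusted p = 4.3e-13) and -3.57 ± 0.15 in Mst1 (adjusted p = 3.7e-12). Of 4 tested adipocyte markers, 1 was lower in dnPI3K-Mst1 and 2 in Mst1. In dnPI3K against Ntg, limma called none of the smooth muscle or adipocyte markers and 1 of 4 skeletal muscle markers, Ckm, lower at -0.67 log2. Over all genes 16.4% were called higher and 14.2% lower in dnPI3K-Mst1, 12.6% and 14.2% in Mst1, and 2.75% lower in dnPI3K.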
